A study of Mus musculus with 6 samples.

Results

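The mitochondrial ribosomal proteins are the nuclear-encoded proteins of the ribosome that works inside mitochondria. They were taken here as the protein-coding genes whose mouse symbol is Mrpl or Mrps followed by a number and at most 1 letter. The rule found 78 genes among the 55471 in the count table, 29 named for the small subunit (Mrps) and 49 for the large subunit (Mrpl). It used symbols only and no measured value. The filter on low counts kept 77 of them, all 29 small-subunit genes and 48 large-subunit genes, among 13044 genes tested in all.

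The study compared Setd1a knockout and wild-type cells, as labelled, of a metastatic mouse line of undifferentiated pleomorphic sarcoma, a soft-tissue tumour. Setd1a encodes a histone H3 lysine 4 methyltransferase. The 3 Setd1a knockout (KO) libraries and the 3 control libraries, labelled WT, were made from total RNA of cells grown in the same serum-containing medium. No drug or other treatment is named. The labels do not say how the knockout was made, whether it is 1 clone, or whether the 3 libraries of a group are separate cultures, so the p-values below cover only library-to-library spread. The sample titles also give each group a tag of unstated meaning, and the knockout and that tag cannot be told apart.

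Mitochondria translate a small set of mRNAs from their own genome, all for subunits of the respiratory chain and the ATP synthase. Their ribosome has its rRNAs from the mitochondrial genome, while every protein of it is encoded in the nucleus, made in the cytosol and imported. Some of these proteins have counterparts in bacterial ribosomes and others exist only in mitochondria. The small subunit holds the mRNA and decodes it, and the large subunit joins amino acids and releases the chain through an exit tunnel at the inner membrane.

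The KO libraries held less mRNA of the Mrpl and Mrps genes than the control libraries, by a small amount spread over most of them. Of the 77 genes, 62 had a log2 change (KO over control) below 0, 22 of 29 in the small subunit and 40 of 48 in the large subunit. Of all 13044 genes tested, 49.8% were below 0. The median log2 change was -0.10 for the small subunit and -0.14 for the large subunit, against 0.000662 over all genes tested. No single gene passed the test between the groups. When same-numbered libraries were compared in pairs, 5 (6.49%) were called lower: Mrpl24, Mrpl2, Mrpl23, Mrpl34 and Mrps10. Of all genes tested 1.86% were called lower in this way. With pair 3 left out none of the 5 was still called, nor was any other gene tested.

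The promoters of these 5 genes are shown because they are the genes called in the paired test. Each is 300 bases from RefSeq on GRCm38.p6, 5′ to 3′ on the gene's strand, from 250 bases before the listed start to 50 after it. Capitals mark matches to the binding motifs of SP1, the ETS family or ZNF143, which are described further on.
Mrpl24 (chr3:87919294-87919593, plus strand): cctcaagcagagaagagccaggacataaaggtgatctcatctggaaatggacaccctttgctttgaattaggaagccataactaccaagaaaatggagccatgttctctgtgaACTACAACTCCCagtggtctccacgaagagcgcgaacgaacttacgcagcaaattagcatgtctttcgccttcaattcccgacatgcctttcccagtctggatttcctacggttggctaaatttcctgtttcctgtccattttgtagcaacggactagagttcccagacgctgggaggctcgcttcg
Mrpl2 (chr17:46645971-46646270, plus strand, the first of 3 listed promoters): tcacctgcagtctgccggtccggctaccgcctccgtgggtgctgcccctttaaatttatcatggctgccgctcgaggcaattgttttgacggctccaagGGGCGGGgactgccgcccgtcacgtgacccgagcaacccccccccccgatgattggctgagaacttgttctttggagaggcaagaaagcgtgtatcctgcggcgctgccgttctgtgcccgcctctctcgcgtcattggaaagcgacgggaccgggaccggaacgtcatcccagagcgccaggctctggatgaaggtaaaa
Mrpl23 (chr7:142532782-142533081, plus strand): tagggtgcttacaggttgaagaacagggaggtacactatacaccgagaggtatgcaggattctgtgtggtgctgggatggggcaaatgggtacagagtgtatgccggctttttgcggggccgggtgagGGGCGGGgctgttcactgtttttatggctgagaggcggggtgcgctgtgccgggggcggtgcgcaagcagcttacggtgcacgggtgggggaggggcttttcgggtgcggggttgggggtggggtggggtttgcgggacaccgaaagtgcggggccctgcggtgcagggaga
Mrpl34 (chr8:71464676-71464975, plus strand): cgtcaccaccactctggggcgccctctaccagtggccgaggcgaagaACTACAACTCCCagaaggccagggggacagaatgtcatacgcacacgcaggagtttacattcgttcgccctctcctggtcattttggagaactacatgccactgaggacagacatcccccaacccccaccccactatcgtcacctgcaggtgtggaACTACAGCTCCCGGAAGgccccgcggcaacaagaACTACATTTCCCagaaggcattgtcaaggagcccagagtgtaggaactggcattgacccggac
Mrps10 (chr17:47368947-47369246, plus strand): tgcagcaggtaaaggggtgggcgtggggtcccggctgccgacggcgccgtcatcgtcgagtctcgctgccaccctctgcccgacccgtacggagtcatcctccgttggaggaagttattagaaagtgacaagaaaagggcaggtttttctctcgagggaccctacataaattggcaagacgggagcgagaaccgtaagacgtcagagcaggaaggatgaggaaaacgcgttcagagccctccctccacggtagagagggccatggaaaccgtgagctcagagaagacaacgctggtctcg

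Before the single genes, the libraries were checked. Library totals lay between 17749533 and 18272622 counts, so 1 CPM, the count scaled to library size, stood for about 18 reads. Setd1a itself was at 53.2, 68.7 and 56.3 CPM in KO libraries, against 71.0, 75.3 and 73.5 CPM in control libraries. The groups did not overlap, but the gene was still counted in every KO library (log2 change -0.30 ± 0.12, edgeR adjusted p = 0.436; exact permutation p = 0.1, two-sided, the smallest that 3 against 3 allows). What the knockout did to the Setd1a protein was not measured. Mesenchymal markers marked the cells as labelled: all 10 listed passed the filter, with a summed level of 7593 to 8813 CPM in KO libraries and 8859 to 9302 CPM in control libraries. Of 7 epithelial markers 3 passed the filter, with sums of 46.3 to 86.5 CPM in KO and 50.8 to 86.2 CPM in control libraries. Of 7 leukocyte markers 2 passed, with sums of 19.8 to 28.3 CPM in KO and 20.3 to 22.5 CPM in control libraries, and Adgre1 and Tyrobp were at 0 counts throughout. Of 6 endothelial markers 1 passed, with sums of 2.89 to 4.35 CPM in KO and 1.33 to 2.63 CPM in control libraries. None of 6 skeletal muscle markers passed, and Myod1, Myog and Pax7 were at 0 counts. The paired test called Col3a1 and S100a4 of the mesenchymal list lower, and the part of the lower mesenchymal sum in the results below was not tested. A lower bulk level also cannot be told apart from less mRNA in each cell against fewer cells that make it.

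The summed level gives the size of the shift. The 77 genes together took 4054, 4013 and 4128 CPM in KO libraries 1, 2 and 3, against 4454, 4330 and 4594 CPM in control libraries 1, 2 and 3. Every KO library was thus below every control library, with means of 4065 ± 58.1 and 4459 ± 132 CPM in KO and control libraries (SD, n = 3 each). The KO sum was 0.910, 0.927 and 0.898 of the control sum in the 3 pairs.

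The genes named for the small and for the large subunit were lower by about the same proportion. The subunits are taken by symbol here. The small-subunit sum therefore holds Mrps18a and Mrps30, whose proteins sit in the large subunit, and Mrps36, described further on. Mrps18a and Mrps30 together averaged 140 CPM in KO and 148 CPM in control libraries. The small-subunit genes summed to 1410, 1372 and 1424 CPM in KO libraries, against 1532, 1464 and 1579 CPM in control libraries. The large-subunit genes summed to 2644, 2642 and 2704 CPM in KO libraries, against 2922, 2866 and 3015 CPM in control libraries. Neither subunit's sums overlapped between the groups. The ratio of the small-subunit to the large-subunit sum was 0.526 ± 0.00702 in KO libraries and 0.520 ± 0.00767 in control libraries (SD, n = 3 each). The difference was smaller than the SD of each group, although the ratio was higher in KO in all 3 pairs.

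The shift was present in each pair of libraries. The median log2 change over all 77 genes was -0.14, -0.10 and -0.16 in pairs 1, 2 and 3. The small-subunit median was -0.12, -0.06 and -0.16 and the large-subunit median -0.15, -0.13 and -0.19, while the median over all genes tested was 0.000888, -0.00438 and -0.0159. Pair 2 gave the smallest median in both subunits.

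**Figure D1:**
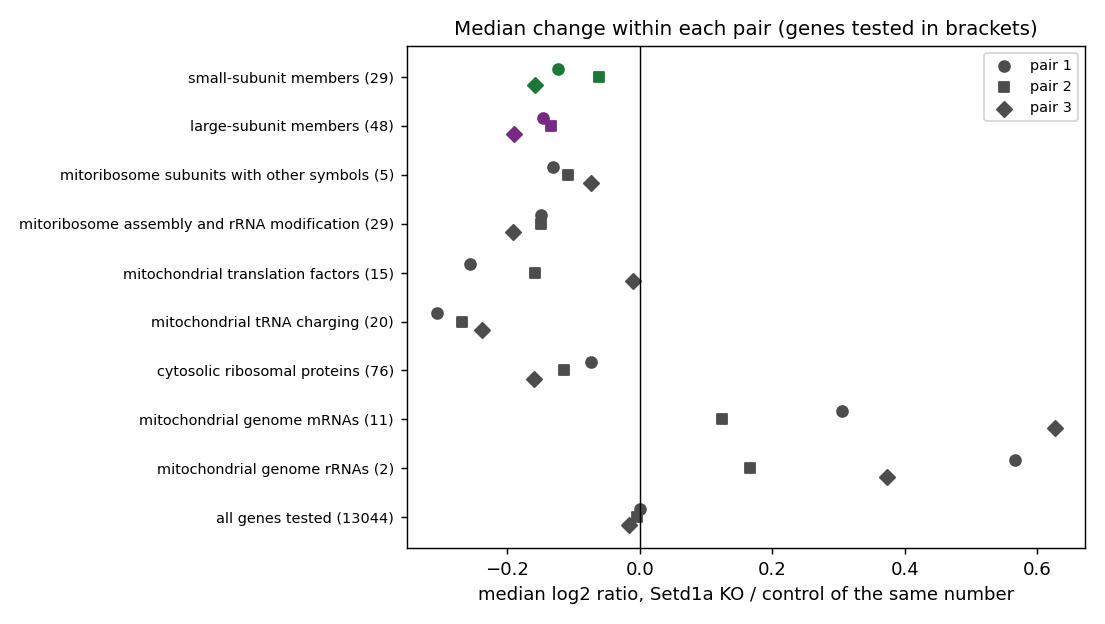
Median log2 change (KO over control, horizontal axis) in each of the 3 pairs of same-numbered libraries (marker shape), for the genes of each subunit, other lists of the translation system described further on, and all genes tested (number of genes in brackets). The medians of both mitochondrial subunits lay below 0 in each pair, between -0.06 and -0.19, while those of all genes lay within 0.02 of 0.

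The single changes were small and mostly in 1 direction. They ran from -0.46 for Mrpl24 to 0.11 for Mrpl46. Under -0.3 lay 14 genes, 3 of the small and 11 of the large subunit, and 0 lay over 0.3. Within 0.1 of 0 on either side lay 30 genes, 13 of the small and 17 of the large subunit.

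Between the groups, edgeR's quasi-likelihood test called none of the 77 at an adjusted p of 0.05, and of all genes tested it called 0, or 0%, in either direction. At an unadjusted p under 0.05, 17 of the 77 (22.1%) were lower in KO libraries and 0 were higher, against 4.5% lower and 5.3% higher among all genes tested. limma-voom and DESeq2 also called 0 of the 77, and in limma-voom 15 of the 77 were lower at an unadjusted p under 0.05, where 9.76% of all genes passed in either direction. The smallest adjusted p among the 77 was 0.219 in edgeR, for Mrpl24, and 0.0705 in DESeq2.

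The paired test put the library number in the model, because same-numbered KO and control libraries deviated together from their group means. It called 5 of the 77 (6.49%) lower and 0 higher, against 1.86% lower and 2.4% higher among all genes tested. At an unadjusted p it had 25 lower (32.5%) and 0 higher, against 10.1% lower and 9.7% higher among all genes. The calls were 4 of 48 large-subunit genes and 1 of 29 small-subunit genes. Leaving out pair 1 kept Mrpl2 and Mrpl23, leaving out pair 2 kept Mrpl24, and leaving out pair 3 kept none of the 5, nor any call among all genes tested. Without the robust setting of the test, which limits the weight of genes with unusual spread, only Mrpl24 remained called. The changes of these 5 genes stayed between -0.30 and -0.55 with any 1 pair left out.

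The separation of the groups was also counted on the scaled CPM, with no model fitted. In 20 of the 77 genes (26%), every KO library was below every control library, and in 0 every KO library was above. Among all genes tested 7.77% were below and 7.49% above in this way. The 20 were Mrps5, Mrps14, Mrps16, Mrps18a and Mrps27 of the small-subunit names, and Mrpl2, Mrpl11, Mrpl17, Mrpl23, Mrpl24, Mrpl34, Mrpl36, Mrpl42, Mrpl45, Mrpl48, Mrpl49, Mrpl51, Mrpl52, Mrpl55 and Mrpl57 of the large-subunit names. KO was below control in all 3 pairs in 39 genes (50.6%) and above in all 3 pairs in 1, Mrps30, against 21.6% below and 19.9% above among all genes tested.

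**Figure D2:**
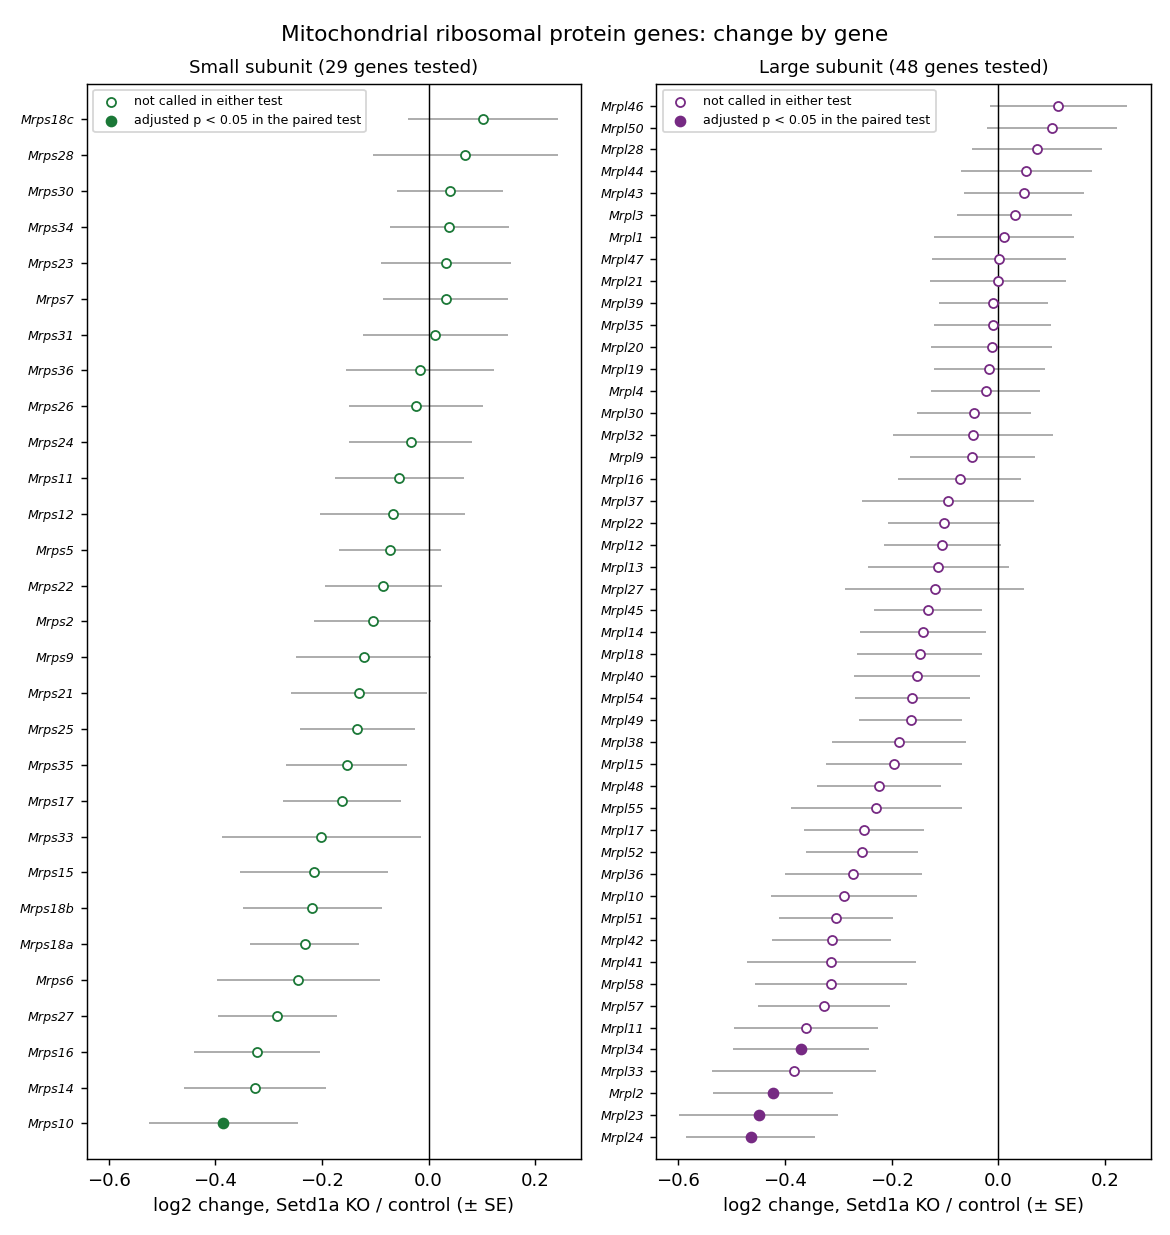
Log2 change (KO over control, horizontal axis) of each of the 77 tested mitochondrial ribosomal protein genes with its standard error, small and large subunit apart, n = 3 libraries each; filled points were called in the paired test. Most points lie left of 0, and the range is -0.46 for Mrpl24 to 0.11 for Mrpl46.

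The 5 genes called in the paired test came from more than 1 place of the ribosome, and 4 of them were large-subunit genes. Mrpl24 and Mrpl23 encode proteins at the rim of the exit tunnel, where the new chain leaves the large subunit. Mrpl24 (ENSMUSG00000019710, GRCm38 chromosome 3, 87919506 to 87923672, plus strand) had 39.0, 49.0 and 48.8 CPM in KO libraries, against 63.6, 59.3 and 65.8 CPM in control libraries. All KO libraries were below all control libraries, and KO library 1 was lowest.
The mean was 45.6 ± 5.69 CPM in KO and 62.9 ± 3.31 CPM in control libraries (SD, n = 3 each), a paired fold of 0.722 (log2 -0.47 ± 0.0984, edgeR adjusted p = 0.0217). Without pairing the log2 change was -0.46 ± 0.12 (edgeR adjusted p = 0.219). Of its exonic bases 26.3% are shared with Rrnad1 on the other strand. The strand setting of the counting is not given in the sources used here, so reads of the 2 genes cannot be told apart there. Rrnad1 was at 15.9 ± 3.58 CPM in KO and 18.2 ± 0.504 CPM in control libraries (SD, n = 3 each; log2 change -0.20, edgeR adjusted p = 0.804).

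Mrpl23 (ENSMUSG00000037772, chromosome 7, 142532686 to 142540747, plus strand) had 11.6, 10.9 and 14.1 CPM in KO libraries, against 15.6, 16.2 and 18.1 CPM in control libraries. It is a low gene, and the groups did not overlap. The paired fold was 0.730 (log2 -0.45 ± 0.11, edgeR adjusted p = 0.0447), and without pairing the adjusted p was 0.350. A processed pseudogene, Mrpl23-ps1, held 4, 4 and 1 counts in KO and 10, 5 and 3 counts in control libraries. Reads that match both may have been split or left out.

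Mrpl2 encodes the counterpart of bacterial L2, a protein beside the catalytic centre of the large subunit. Mrpl2 (ENSMUSG00000002767, chromosome 17, 46646229 to 46650139, plus strand) had 30.1, 34.6 and 31.2 CPM in KO libraries, against 40.7, 43.0 and 44.9 CPM in control libraries. The groups were apart and each was narrow, with means of 32.0 ± 2.35 CPM in KO and 42.9 ± 2.09 CPM in control libraries (SD, n = 3 each). The paired fold was 0.746 (log2 -0.42 ± 0.0935, edgeR adjusted p = 0.0271), and without pairing the adjusted p was 0.226.

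Mrpl34 encodes a very small protein of the large subunit with a bacterial counterpart. Mrpl34 (ENSMUSG00000034880, chromosome 8, 71464959 to 71465747, plus strand) had 39.9, 39.1 and 44.3 CPM in KO libraries, against 53.4, 45.6 and 60.3 CPM in control libraries. The control libraries were more widely spread than the KO libraries, and the groups did not overlap. The paired fold was 0.777 (log2 -0.36 ± 0.0911, edgeR adjusted p = 0.0435), and without pairing the adjusted p was 0.368.

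Mrps10, the only small-subunit gene called, encodes the counterpart of bacterial S10 in the head of that subunit. Mrps10 (ENSMUSG00000034729, chromosome 17, 47368887 to 47381417, plus strand) had 45.1, 47.5 and 62.2 CPM in KO libraries, against 67.6, 61.1 and 73.4 CPM in control libraries. The groups overlapped, since KO library 3 was above control library 2, but each KO library was below the control library of its own number. The paired fold was 0.761 (log2 -0.39 ± 0.0923, edgeR adjusted p = 0.0343), and without pairing the adjusted p was 0.397.

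**Figure D3:**
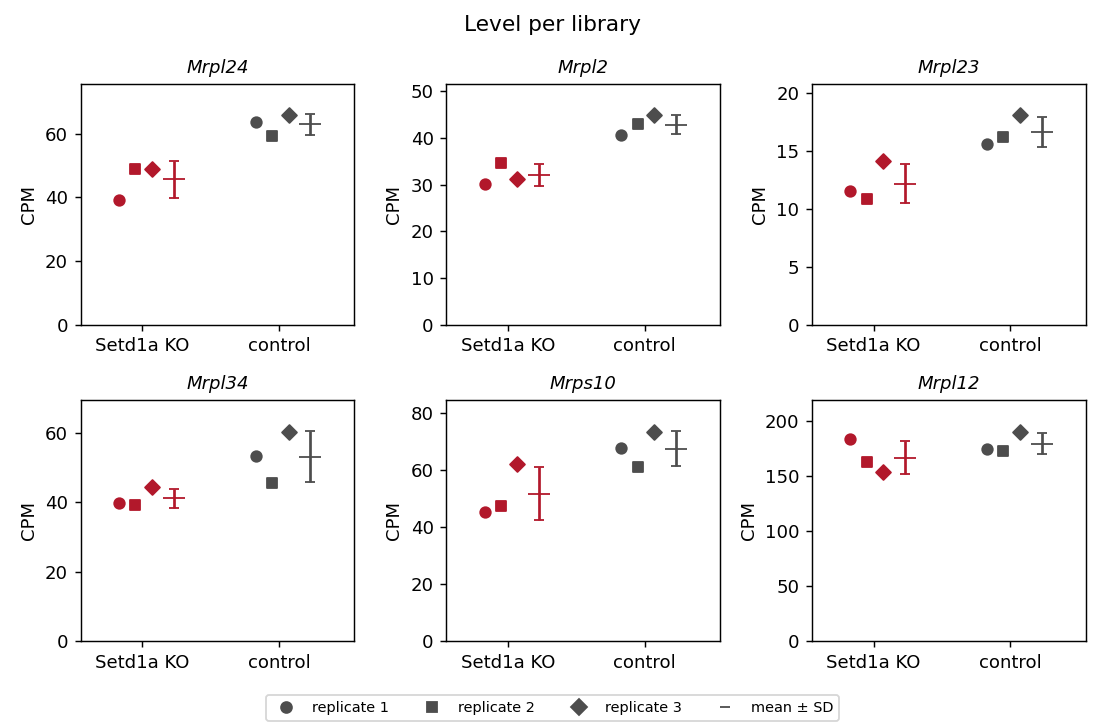
Level in CPM (vertical axis) of the 5 genes called in the paired test, 1 point for each library, KO left of control (marker shape gives the library number), with the mean and SD beside them, and Mrpl12 for comparison. In the 5 called genes each KO library lies below the control library of its own number, and among these 5 the groups overlap only for Mrps10; for Mrpl12 they overlap too.

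In the small subunit, 5 genes stand next to Mrps10 by p, and none passed in either test. Mrps16, the counterpart of bacterial S16, was at 23.7, 28.7 and 27.5 CPM in KO libraries, against 32.6, 33.4 and 33.9 CPM in control libraries (log2 change -0.32 ± 0.12, edgeR adjusted p = 0.401). Mrps14, a protein of the head, was at 19.4, 21.5 and 23.2 CPM in KO libraries, against 24.6, 25.5 and 30.4 CPM in control libraries (log2 change -0.33 ± 0.13). Mrps27 encodes a mitochondria-specific protein with pentatricopeptide repeats, and was at 67.7 ± 7.36 CPM in KO and 82.4 ± 2.05 CPM in control libraries (SD, n = 3 each; log2 change -0.28 ± 0.11). In all 3 the groups did not overlap.

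Mammals have 3 genes related to bacterial S18, and their log2 changes differed in sign. Mrps18a, whose protein sits in the large subunit in spite of its name, was at 56.2, 53.3 and 52.2 CPM in KO libraries, against 60.9, 62.6 and 66.4 CPM in control libraries (log2 change -0.23 ± 0.10, edgeR adjusted p = 0.492). Mrps18b was at 56.7 ± 9.13 CPM in KO and 66.0 ± 4.51 CPM in control libraries (SD, n = 3 each; log2 change -0.22 ± 0.13, edgeR adjusted p = 0.647). Mrps18c was at 18.0, 17.8 and 22.3 CPM in KO libraries, against 18.1, 16.5 and 19.5 CPM in control libraries (log2 change 0.10 ± 0.14, edgeR adjusted p = 0.922). None of the 3 passed, and the difference between them was not tested. The sign of Mrps18c was not stable, since its log2 change was -0.013 with KO library 3 left out. Of exonic bases, 30.5% in Mrps18b and 23.2% in Mrps18c are shared with other genes.

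The proteins that line the decoding site and the path of the mRNA had the median nearest 0. Of the 5 genes listed there, Mrps2, Mrps5, Mrps7, Mrps12 and Mrps24, 4 were below 0, with a median of -0.07 and a range from -0.10 for Mrps2 to 0.03 for Mrps7. None was called. Mrps7 was at 93.7, 85.3 and 73.8 CPM in KO libraries, against 78.4, 88.0 and 80.9 CPM in control libraries. The groups overlapped and the pairs pointed both ways.

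The stalk of the large subunit, which recruits the translation factors, showed the lowest median of the listed places with more than 1 gene. Its 3 genes were all below 0, with a median log2 change of -0.29, and none was called. Mrpl11, at the base of the stalk, was at 25.7, 32.2 and 34.4 CPM in KO libraries, against 39.1, 36.6 and 42.8 CPM in control libraries (log2 change -0.36 ± 0.13, edgeR adjusted p = 0.412; paired adjusted p = 0.0672). Mrpl10, which anchors the stalk, was at 75.3 ± 12.2 CPM in KO and 92.1 ± 9.23 CPM in control libraries (SD, n = 3 each; log2 change -0.29 ± 0.14). Mrpl12, the flexible stalk protein, was at 183.4, 162.7 and 153.6 CPM in KO libraries, against 174.7, 172.5 and 190.1 CPM in control libraries (log2 change -0.10 ± 0.11, edgeR adjusted p = 0.860). Its KO library 1 was above the control library of the same number.

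Around the catalytic centre, 3 of 4 genes were below 0, with a median of -0.10. The range ran from Mrpl2, described above, to Mrpl3 at 0.03, with 89.3 ± 7.77 CPM in KO and 87.5 ± 4.20 CPM in control libraries (SD, n = 3 each). At the exit tunnel, 6 of 8 genes were below 0, with a median of -0.12, and Mrpl24 and Mrpl23 were the 2 called in the paired test. Mrpl44, an RNase III-like protein counted with this place, was highest at 0.05, with 21.8 ± 1.80 CPM in KO and 20.98 ± 0.889 CPM in control libraries (SD, n = 3 each).

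At the central protuberance, the part of the large subunit that faces the head of the small one, 5 of 6 genes were below 0, with a median of -0.17. Mrpl52 was lowest, at 44.8, 48.6 and 49.8 CPM in KO libraries against 54.4, 56.8 and 59.7 CPM in control libraries (log2 change -0.26 ± 0.11, edgeR adjusted p = 0.458). Mrpl46 was highest, at 30.2, 23.1 and 25.8 CPM in KO libraries against 24.5, 24.2 and 24.4 CPM in control libraries (log2 change 0.11 ± 0.13). The KO libraries of Mrpl46 lay on both sides of a narrow control group. None of the 6 was called.

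The proteins without a bacterial counterpart included further genes with separate groups. Mrpl42 was at 92.7, 96.6 and 110.9 CPM in KO libraries, against 132.5, 123.6 and 116.6 CPM in control libraries (log2 change -0.31 ± 0.11, edgeR adjusted p = 0.388). Mrpl51 was at 66.2, 69.5 and 75.3 CPM in KO libraries, against 84.4, 82.5 and 93.7 CPM in control libraries (log2 change -0.30 ± 0.11, edgeR adjusted p = 0.381; paired adjusted p = 0.0516). Mrpl57 was at 36.7 ± 3.66 CPM in KO and 46.1 ± 4.40 CPM in control libraries (SD, n = 3 each; log2 change -0.33 ± 0.12). None of these genes passed either test, and their groups did not overlap.

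Genes whose products keep the place of a bacterial protein and those counted as specific to mitochondria gave near medians. For this grouping Mrps18a and Mrps30 stand with the large subunit, Mrps18a and Mrps18b with the mitochondria-specific genes in spite of their relation to S18, and Mrps36 in neither class. In the small subunit, 13 of 16 bacterial-type and 7 of 10 mitochondria-specific genes were below 0, both with a median of -0.11. In the large subunit the counts were 26 of 30 and 15 of 20, with medians of -0.11 and -0.16. The difference between the classes was not tested.

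Some members do other work as well as, or in place of, building the ribosome. Mrpl58 encodes a peptidyl-tRNA hydrolase that has become part of the large subunit and can release stalled chains. It was at 37.2, 33.9 and 44.8 CPM in KO libraries, against 51.4, 40.6 and 52.1 CPM in control libraries (log2 change -0.31 ± 0.14, edgeR adjusted p = 0.508), with overlapping groups. Mrps30, another S-named protein of the large subunit, was at 86.6 ± 2.75 CPM in KO and 84.2 ± 3.55 CPM in control libraries (SD, n = 3 each; log2 change 0.04 ± 0.0992). Mrps36, now known as a subunit of the 2-oxoglutarate dehydrogenase complex, had a log2 change of -0.02.

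One gene could not be measured. Mrpl53 had 0 counts in all 6 libraries, and 88.0% of its exonic bases are shared with other annotated genes, Gm42688 on the same strand and Ccdc142os on the other. Gm42688 held 15, 7 and 16 counts in KO and 7, 11 and 15 counts in control libraries. The zero therefore says nothing of the level of Mrpl53 mRNA unless the rule for reads in shared bases is known, and it is not given in the sources used here. In all, 45 of the 78 genes share no exonic base with another gene and 10 share over 20%, among them Mrps34 with 77.8% and Mrps25 with 69.8%.

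Per kilobase of merged exons, the levels covered a wide range. In the large subunit the median level was 22.3 CPM per kb in KO and 24.02 in control libraries. Mrpl12, whose protein is present in several copies in each ribosome, was highest with 108.7 CPM per kb in KO and 116.9 in control libraries, ahead of Mrpl34 with 67.7 in KO and 87.5 in control libraries and Mrpl54 with 68.0 in KO and 76.0 in control libraries. Among the 48 tested, Mrpl48 was lowest with 2.24 CPM per kb in KO and 2.61 in control libraries, next to Mrpl23 with 2.50 in KO and 3.41 in control libraries.

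In the small subunit the median level was 15.1 CPM per kb in KO and 16.8 in control libraries. Mrps21 had 52.5 CPM per kb in KO and 57.4 in control libraries, and Mrps6 had 48.7 in KO and 57.7 in control libraries, so the first place changed between the groups by less than the spread between libraries. Mrps25 was low with 6.75 CPM per kb in KO and 7.40 in control libraries, as was Mrps35 with 6.84 in KO and 7.61 in control libraries. Mrps10 was the lowest in KO libraries at 6.38 CPM per kb, against 8.34 in control libraries. These ranks depend on the length used. Divided by the length of the principal transcript, Mrpl42 with 150.2 CPM per kb in KO and 186.5 in control libraries stood above Mrpl12 with 126.6 in KO and 136.1 in control libraries, and Mrps10 moved up to rank 5 of 29, at 50.7 CPM per kb in KO and 66.2 in control libraries.

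The other parts of the mitochondrial translation system were compared as lists, each with its own count. The 5 mitoribosome proteins with other symbols, Dap3, Chchd1, Aurkaip1, Ptcd3 and Gadd45gip1, were all below 0 with a median log2 change of -0.05, and none was called in either test. Their sums were 450, 400 and 470 CPM in KO libraries, against 477, 433 and 473 CPM in control libraries, with overlapping groups. Chchd1, a small-subunit protein, was at 41.5 ± 5.00 CPM in KO and 47.9 ± 2.54 CPM in control libraries (SD, n = 3 each; log2 change -0.21 ± 0.12). No gene of any list in this and the next paragraphs was called by the main edgeR test without pairing, as was true of all genes tested.

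Of 29 genes for the assembly of this ribosome and the modification of its rRNA, 25 were below 0, with a median of -0.13. The paired test called 2 lower and 0 higher. Spg7, a subunit of the inner-membrane protease that processes the precursor of Mrpl32, was at 36.8, 45.3 and 49.9 CPM in KO libraries, against 51.8, 58.7 and 67.1 CPM in control libraries (paired log2 change -0.43, edgeR adjusted p = 0.0191). Mtg1, a GTPase of large-subunit assembly, was at 10.9, 9.99 and 15.0 CPM in KO libraries, against 19.5, 13.0 and 21.2 CPM in control libraries (paired log2 change -0.57, edgeR adjusted p = 0.0242). The groups were apart for Spg7 and overlapped for Mtg1, and both genes were lower in each pair. Without pair 1 Mtg1 was no longer called, and without pair 2 Spg7 was not.

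Of 15 mitochondrial translation factors, 11 were below 0, with a median of -0.19, and the paired test called 1 lower and 0 higher. It was Taco1, an activator of the translation of the cytochrome c oxidase subunit I mRNA, at 7.60, 8.38 and 9.73 CPM in KO libraries, against 13.9, 11.2 and 15.9 CPM in control libraries (paired fold 0.629, edgeR adjusted p = 0.0183). It was also called without pair 1 and without pair 2.

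The enzymes that charge mitochondrial tRNAs had the lowest median of these lists and the most calls. Of 20 genes 17 were below 0, with a median of -0.27, and the paired test called 7 lower, among them Iars2, Gatb and Tars2, and 0 higher. Iars2, which charges isoleucine tRNA, was at 89.3, 105.2 and 111.8 CPM in KO libraries, against 152.8, 156.8 and 153.9 CPM in control libraries. Iars2 was also called without pair 1 and without pair 2, where 6 and 5 genes of the list were called. Its groups were far apart, with a paired fold of 0.658 (edgeR adjusted p = 0.0049). Its paired log2 change of -0.60 was larger in size than that of any of the 77 ribosomal protein genes.

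The proteins of the cytosolic ribosome, which makes the mitochondrial ribosomal proteins themselves, had a similar median. Of 76 genes 72 were below 0, with a median log2 change of -0.11, and 0 were called in either test. Their medians in the 3 pairs were -0.07, -0.11 and -0.16. The medians of the 2 kinds of ribosomal protein gene lay close together, and the difference between them was not tested.

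Most of the RNAs that this ribosome holds or reads had log2 changes above 0, and 5 of the 13 tested were called higher in the paired test. The small rRNA, mt-Rnr1, was at 1282, 608.4 and 911.9 CPM in KO libraries, against 793.0, 467.3 and 617.4 CPM in control libraries. The libraries varied widely, but each KO library was above the control library of its number, and mt-Rnr1 rose in the paired test (log2 change 0.55 ± 0.0818, edgeR adjusted p = 0.00635), also without pair 1 and without pair 2 but not without pair 3. The large rRNA, mt-Rnr2, was at 2748, 1975 and 1644 CPM in KO libraries, against 2026, 2041 and 1449 CPM in control libraries (paired log2 change 0.19 ± 0.0921, edgeR adjusted p = 0.273). How rRNA was removed or mRNA selected is not given in the sources used here, so rRNA levels also depend on that step.

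Of 13 mRNAs of the mitochondrial genome 11 were tested, and 10 were above 0, with a median log2 change of 0.25. Of these 11, mt-Atp6, mt-Co2, mt-Co3, mt-Nd3 and mt-Nd6 averaged 0.901 to 5.35 CPM in KO and 0.761 to 5.701 CPM in control libraries. The standard errors of their log2 changes were 0.1996 to 0.398. From the same genome, mt-Co1 averaged 10613 CPM in KO and 8927 CPM in control libraries. The rule for reads that match more than 1 gene is not given. The low counts may therefore not stand for the levels of these mRNAs, yet they enter the count above 0 and the median. The paired test called 4 higher, mt-Nd1, mt-Nd2, mt-Nd4 and mt-Nd5, which encode subunits of the first complex of the respiratory chain. The lowest of these 4, mt-Nd4, averaged 1815 CPM in KO and 1408 CPM in control libraries. From the same complex, mt-Nd3 (log2 change 0.12) and mt-Nd6 (-0.09), both among the genes with low counts, were not called. Without pair 1 the paired test called 6, without pair 2 it called 4 and without pair 3 it called 0. Counts of the mitochondrial genome made up 3.71% ± 0.217 of each library in KO and 2.80% ± 0.276 in control (SD, n = 3 each; exact permutation p = 0.1, two-sided, the smallest the design allows). The 77 ribosomal protein genes made up 0.410% ± 0.0118 in KO and 0.442% ± 0.0155 in control libraries.

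Of 14 genes for regulators of nuclear-encoded mitochondrial genes and of mitochondrial transcription 13 were tested, and 11 were below 0, with a median of -0.06. The paired test called 1, Tefm, the elongation factor of mitochondrial transcription, at 4.79, 6.99 and 7.64 CPM in KO libraries, against 9.74, 9.66 and 10.6 CPM in control libraries (paired log2 change -0.64, edgeR adjusted p = 0.0364). It was not called without pair 1.

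The promoters of the ribosomal protein genes were searched for 5 motifs on both strands: GCGCA, any base, then GCGC for NRF1 and CCGGAAG for the ETS family, to which GABP belongs, both known regulators of mitochondrial genes, AAGATGG for YY1, GGGCGGG for SP1 and ACTACA, 2 bases of any kind, then TCCC for ZNF143. The last was added after the promoters had been read. Of the 78 genes 69 had a RefSeq promoter in the table, and 57 of these held at least 1 motif. The ETS motif was in 26 (37.7%), against 9.93% of the promoters of all 27025 genes listed and 20.6% of those of 9576 other tested genes. The NRF1 motif was in 13 (18.8%), against 5.19% of all and 11.8% of other tested genes. The YY1 motif was in 13 (18.8%), against 7.28% and 8.49%. The SP1 motif was in 29 (42.0%), against 27.9% and 53.4%, and so was less frequent than among other tested genes. The ZNF143 motif was in 5 (7.25%), against 2.08% and 4.90%. In 1 promoter an ETS match overlapped an SP1 match and in 1 a ZNF143 match.

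The 5 promoters printed above show little in common in these letters. The Mrpl24 window has 1 ZNF143 match that starts at -137 from the listed start. Mrpl34 has 3 ZNF143 matches, at -203, -47 and -13, and an ETS match at -37 that overlaps the middle one. Mrpl2 has an SP1 match at -151 and Mrpl23 one at -122. Mrps10 has no match to any of the 5 motifs in its window. The windows of Mrps10 and Mrpl23 begin after the start of the gene as given with its levels above. They begin at 47368947 against 47368887 for Mrps10 and at 142532782 against 142532686 for Mrpl23. No base before those gene starts was searched. Genes with an ETS motif had a median log2 change of -0.20 and those without one -0.10. For NRF1 the medians with and without the motif were -0.10 and -0.15, for YY1 -0.09 and -0.13, for SP1 -0.16 and -0.10, and for ZNF143 -0.31 over its 5 genes and -0.12. The ZNF143 motif was added after the promoters had been read. Its genes include Mrpl24 and Mrpl34, both called lower in the paired test, so its median cannot be set beside those of the other motifs. No test was made of these medians, and a match to a motif does not show that a factor binds there.

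Many of these genes share their start region with another gene. A protein-coding gene on the opposite strand started within 1000 bp of the start of 33 of the 77 (42.9%), against 16.7% of 11664 other tested protein-coding genes. Of the neighbours 30 were tested, of which 18 were below 0 with a median log2 change of -0.03. The 33 ribosomal protein genes beside them had a median of -0.09, and 24 were below 0. Mrpl2 and its neighbour differed most. Klc4, which encodes a kinesin light chain and starts 207 bp away, was at 5.59 CPM on average in KO and 3.57 CPM in control libraries (log2 change 0.65 ± 0.22, edgeR adjusted p = 0.354; paired adjusted p = 0.0709). Pnpla7 beside Mrpl41 had a log2 change of 0.45 and Mitd1 beside Mrpl30 of 0.32. On the other side, Ptcd2 beside Mrps27 had -0.32 and Cyb5rl beside Mrpl37 -0.37.

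**Figure D4:**
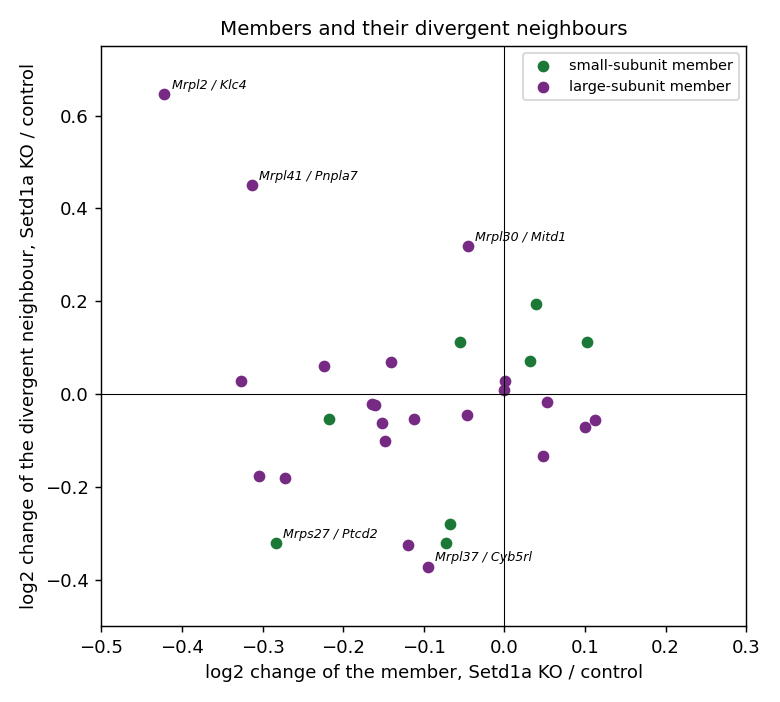
Log2 change (KO over control) of mitochondrial ribosomal protein genes (horizontal axis) and of the protein-coding gene that starts within 1000 bp on the opposite strand (vertical axis), 1 point for each pair with both tested. The neighbours spread on both sides of 0, from 0.65 for Klc4 beside Mrpl2 to -0.37 for Cyb5rl beside Mrpl37; Mrps11 and Mrpl46 neighbour each other and give 2 points.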

How the data were processed

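Total RNA of 6 libraries was sequenced. The authors deposited raw counts, whole reads per Ensembl gene, in 1 table with no normalization, and all its sample columns were used (0 left out). STAR, featureCounts and DESeq are named with mm10, per the submitters' processing notes; their versions, the annotation release, the strand setting and how multi-gene reads were counted are not given. Symbols, positions and exon lengths came from GENCODE M21, which holds 55230 of the 55471 genes.

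Genes were kept by edgeR's filterByExpr, scaled by TMM and tested with the quasi-likelihood test (edgeR 4.0.16, robust glmQLFit, R 4.3.3) over all 13044 genes with Benjamini-Hochberg adjustment at 0.05. CPM values use the TMM scaling. The biological coefficient of variation was 0.143 without and 0.0960 with the replicate number in the model. Counts of same-numbered libraries deviated together from their group means (correlations 0.15, 0.46 and 0.38 in pairs 1 to 3, against -0.45 to 0.05 for other numbers). The pairing rests on these data alone, since no label says what a number stands for, and a paired call is given beside the unpaired one where they differ. limma 3.58.1 and DESeq2 1.42.0 were alternatives, with other scalings, filters, a length correction and each library left out. The test was first tested on simulated data.

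Named genes are Setd1a, the 6 of each subunit with the smallest p, paired calls, the 2 highest and lowest per length in each subunit, the extremes of each role, and up to 3 of each other list by p; other names complete a count or a set named in the text and were chosen after their values were seen. The members and lists were chosen with earlier results of these data known. Promoters are from RefSeq (GRCm38.p6). No pair of libraries agreed within sampling noise.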

Additional observations from a re-analysis of the deposited data

How the results depend on the processing

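Members called lower numbered 0 in the main test, and also with RLE or upper-quartile scaling, a minimum mean of 5 CPM, a length correction, limma-voom, DESeq2, no robust setting, or any 1 library left out. With no filter on low counts 1 was called, Mrpl24 (edgeR adjusted p = 0.0439). With the replicate block 5 were called, and with the block and further changes 5 (length correction), 6 (RLE), 4 (upper quartile), 15 (no filter), 4 (minimum mean), 2 (limma-voom), 3 (DESeq2) and 1 (not robust), and 0 to 2 with 1 pair left out. With the block and the length correction, Mrpl33 was called in place of Mrpl34. The settings that combine the block with another scaling, filter or tool, and those without the robust setting, were added after the data were seen. Over all genes the count of calls was 0 in the main test, 79 lower and 162 higher with no filter, 40 lower and 93 higher in DESeq2, and 242 lower and 313 higher with the block. Genes below 0 numbered 53 (without KO replicate 2) to 66 (without KO replicate 1) of 77, and 56 with the length correction. The median was below 0 in each setting for both subunits; with a library or pair left out it ran from -0.0725 to -0.128 in the small and from -0.099 to -0.19 in the large subunit, the lowest being the block without replicate 3. Setd1a had a log2 change of -0.33 with the block and no filter (edgeR adjusted p = 0.0176), its only call. Of 31 named genes 26 kept their sign in each setting. The others had main values from 0.03 for Mrpl3 to 0.10 for Mrps18c. With a library or, with the block, a pair left out, their lowest and highest values and those below 0 were as follows. Mrpl28 came to -0.068 with a highest of 0.22, Mrpl3 to -0.015, -0.01 and -0.011 with a highest of 0.098, Mrpl44 to -0.017 with a highest of 0.11, Mrps18c to -0.013 with a highest of 0.17, and Mrps7 to -0.044, -0.0045 and -0.089 with a highest of 0.12. The cause of these differences was not tested. With 3 libraries in each group no exact permutation p is below 0.1.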
